A study of Mus musculus with 3 samples.

Results

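Gdf9 encodes growth differentiation factor 9, a secreted ligand of the TGF-beta family that the oocyte makes. It was measured as 1 gene, chosen by name and by a place on chromosome 11 (53244401 to 53251500, mm9), in RNA from ovulated mouse oocytes of 3 litters. Each litter gave 1 library, and the series has 1 group and no second condition. The oocytes came from superovulated females of mixed strain that were homozygous for a floxed allele of LSD1 (LSD1 FL/FL, the histone demethylase gene Kdm1a) and negative for ZP3::Cre, the oocyte Cre transgene that would delete it. They were collected by E0.5 (embryonic day 0.5) and lysed, and total RNA was amplified by SPIA, a linear isothermal copying of cDNA. All 3 libraries share these alleles and this treatment, and the labels do not give the age of the females or the number of oocytes per litter. Nothing in the labels says whether the litters were processed separately before amplification.

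GDF9 is made as a precursor with a signal peptide and a prodomain, and a protease releases the mature ligand from the carboxyl end. It acts on the granulosa and cumulus cells around the oocyte through the type II receptor BMPR2 and the type I receptor TGFBR1, with SMAD2 and SMAD3 as signal carriers, and it works together with its paralogue BMP15. In the mouse, follicles without GDF9 stop growing at the primary stage, and in the preovulatory follicle GDF9 promotes the expansion of the cumulus. Receptors, SMADs and cumulus targets are not analysed here, since the gene annotation at hand is on another build than the files. Ovulated oocytes make little new RNA, so their messenger RNAs are largely stored ones.

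Alignments were 72 bases long and numbered 35183199, 31787887 and 32028802 for litters 1, 2 and 3. The libraries differed at many places of the genome, as described for the windows over Gdf9 further on. Depth is the number of alignments over a base and is given raw or per 1e6 alignments of the library. CPM is the number of alignments per 1e6, and RPKM is CPM per kilobase of exon. Intervals cover counting error only, because amplified reads are not independent molecules.

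The place of Gdf9 was read from the depth itself. The annotated main transcript, Gdf9-201 of the gene ENSMUSG00000018238.6, has 2 exons of 504 and 1289 bases around an intron of 2813 bases, and both exons carry coding sequence. These lengths, without any coordinate of the other build, were slid over all 121839251 possible starts on chromosome 11, and each start was scored by the mean log2(depth + 1) in the exons minus that in the intron. The mean score over litters was highest, at 8.32, with exon 1 starting at base 53246799, inside the interval. The next best place more than 5000 bases away scored 6.95. Litters 1 and 2 gave the same place to within 1 base when taken alone. In litter 3 it scored 7.28, and 53 starts scored higher, none of them within 100 bases and up to 7.35. The steepness of depth at the 4 exon ends placed exon 1 at 53246798, 53246800 and 53246798 in litters 1, 2 and 3, and at 53246799 in all 3 together.

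Exon 1 thus ran from 53246799 to 53247302 and exon 2 from 53250116 to 53251404 on chromosome 11 (mm9), on the plus strand, to within a few bases. The coding sequence started at 53246906 and ended, stop codon included, at 53251044, which leaves 107 bases of 5' UTR and 360 bases of 3' UTR. Its 1326 bases were split into 397 in exon 1 and 929 in exon 2. The depth at the exon borders is a description, since the exon-intron contrast of the same depth set the place. Depth 20 bases inside the end of exon 1 was 200, 187 and 44 in litters 1, 2 and 3, and 10 bases into the intron it was 0 in each. At the start of exon 2, depth was 1846, 1633 and 363 at 20 bases inside and 0, 2 and 0 at 10 bases outside. The reads carry no gaps, so none crosses from one exon into the other and depth falls towards each exon border. At the 3' end, depth was 2360, 2932 and 373 at 20 bases before the last base and 10, 2 and 13 at 10 bases past it. The start of exon 1 had no such steep step. Depth began 26 bases before it in litters 1 and 2 and 6 bases inside it in litter 3. A neighbour that the placing did not use also had depth here. Uqcrq, a subunit of respiratory complex III, lies on the minus strand upstream of Gdf9, and its last exon is annotated to begin 4149 bases before exon 1 of Gdf9. A block of depth ended 4154, 4148 and 4143 bases before exon 1 in litters 1, 2 and 3.

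Stretches of the annotated coding sequence, and none of the deeper 3' UTR, are shown here as marks along the profile described further on. They are given 5' to 3' from the GENCODE M21 transcript of Gdf9 on chromosome 11, with positions counted from 1 at its first base. Capitals mark the start codon, the last base of exon 1 with the first base of exon 2, and the stop codon. The stretches labelled deepest and shallowest in coding exon 2 were picked by mean depth, but not over all of its bases. This is a description of them and no test. Bases nearer the start of exon 2 were deeper than the stretch labelled deepest, so that label does not hold for the whole coding part.
Gdf9 coding start, bases 108 to 167: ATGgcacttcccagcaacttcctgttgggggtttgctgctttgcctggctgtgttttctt
Gdf9 exon border, bases 475 to 534: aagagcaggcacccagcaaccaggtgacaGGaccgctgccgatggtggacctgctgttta
Gdf9 deepest coding stretch of exon 2, bases 577 to 636: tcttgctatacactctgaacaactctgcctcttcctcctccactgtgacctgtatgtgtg
Gdf9 shallowest coding stretch of exon 2, bases 1129 to 1188: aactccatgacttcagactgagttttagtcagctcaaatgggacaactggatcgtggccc
Gdf9 coding end, bases 1374 to 1433: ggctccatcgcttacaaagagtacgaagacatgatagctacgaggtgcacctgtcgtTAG

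Gdf9 was among the most deeply covered places of the oocyte libraries. Its exons held 38704, 41156 and 11253 alignments in litters 1, 2 and 3. Litter 1 thus had 1100 CPM, with a 95% Wilson interval from 1089 to 1111. Litter 2 had 1295 CPM (1282 to 1307), and litter 3 had 351 CPM (345 to 358). Per length, the level was 614, 722 and 196 RPKM in litters 1, 2 and 3, or 511 ± 278 RPKM (SD, n = 3). Litters 1 and 2 were close to each other, and litter 3 was 0.293 times their mean. Without litter 3, the mean was 668 RPKM. The coefficient of variation over the 3 litters was 54.4%, against 11.5% without litter 3. Among 1 kb windows of the genome that averaged 10 CPM or more, its median over the 3 litters was 38.4%. A value lower than that of Gdf9 was found in 71.0% of these windows. Mean depth in the exons was 1554, 1653 and 452 in litters 1, 2 and 3.

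Of the 303433 windows of 1 kb with any alignment, the 3 windows with most of Gdf9's alignments ranked high. The window from 53251001 to 53252000, which holds mainly the 3' UTR, had 629, 757 and 235 CPM in litters 1, 2 and 3 and ranked 156 by its mean of 540 ± 272 CPM (SD, n = 3). It ranked 8 on chromosome 11, and 116, 100 and 464 in the genome within litters 1, 2 and 3. The window from 53250001 to 53251000, which holds mainly the coding part of exon 2, had 385, 432 and 75.3 CPM and ranked 297. The window from 53247001 to 53248000, with most of the coding part of exon 1, had 82.1, 105 and 46.9 CPM and ranked 1384. All 3 windows were lowest in litter 3, also by rank.

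**Figure D1:**
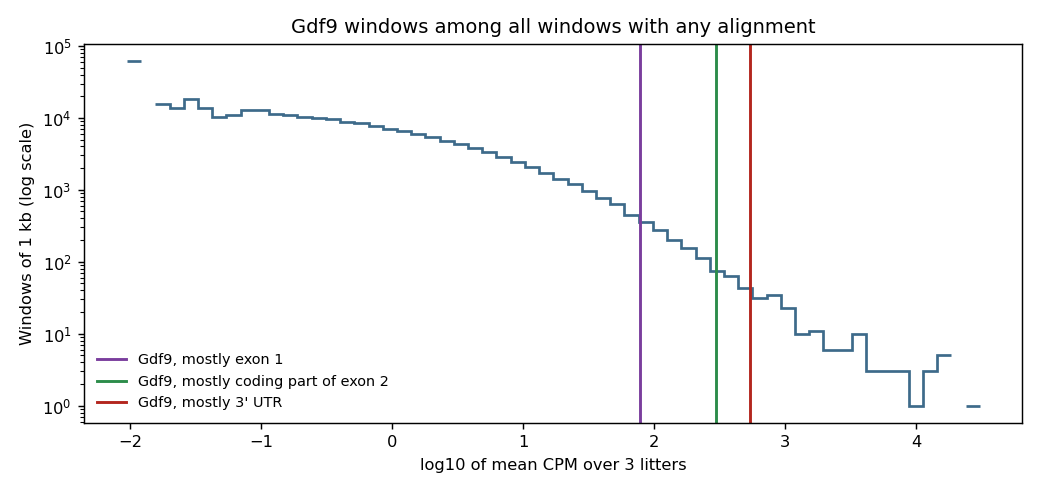
Distribution of mean CPM (x axis, log10) over all 1 kb windows with any alignment, with the number of windows on a log scale (y axis) and vertical lines at the 3 windows that hold most of Gdf9. The lines stand at means of 77.8, 297 and 540 CPM, in the upper tail of the 303433 windows.

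Nearly all alignments lay on the exons. The place was chosen for deep exons around a shallow intron, so these values describe the chosen place and are no test of it. Of all alignments in the interval, 99.5%, 99.9% and 99.6% in litters 1, 2 and 3 lay in the 2 exons. Mean depth in the intron was 0.564, 0.303 and 0.102, against 1554, 1653 and 452 in the exons. Intron depth was thus 0.0363%, 0.0183% and 0.0225% of exon depth in litters 1, 2 and 3 (0.0257% ± 0.00938, SD, n = 3). Leaving out the 72 bases next to each border, the intron held 19, 8 and 3 alignments, and its median depth was 0 in each litter. Depth was above 0 over 6.33%, 7.82% and 4.87% of the intron's bases in litters 1, 2 and 3. In the exons, litters 1 and 2 had depth at every base, with a lowest value of 9 and 12, while 6 bases of exon 1 were at 0 in litter 3.

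**Figure D2:**
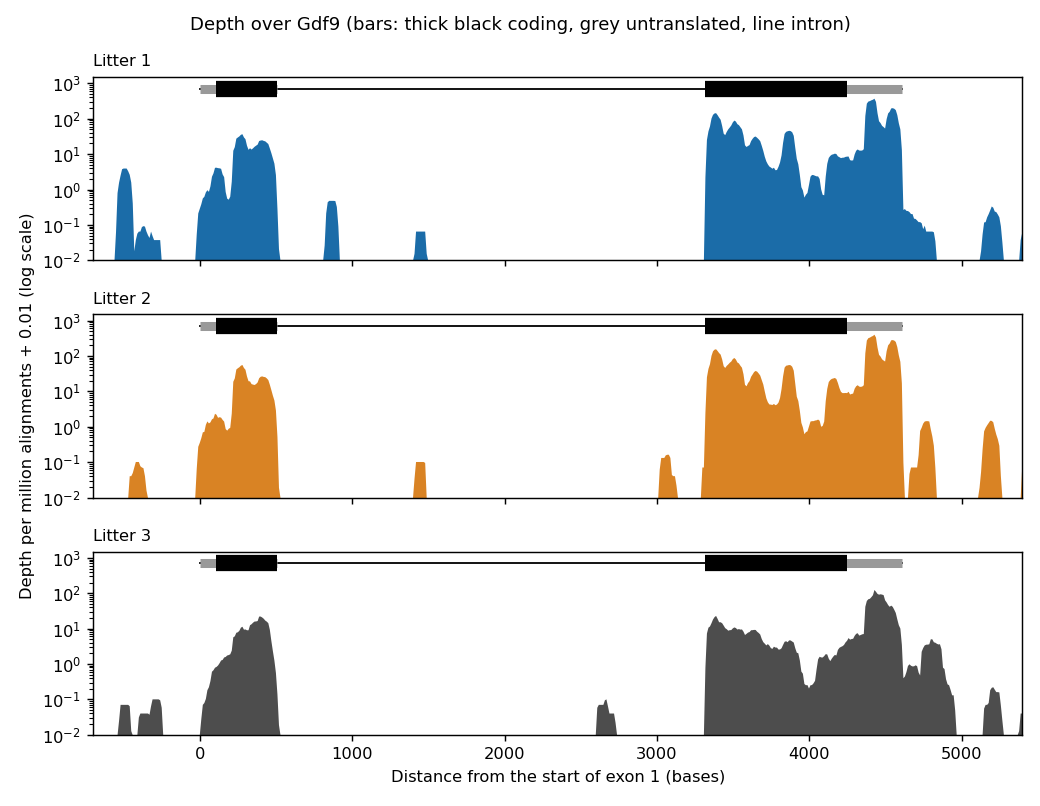
Depth per 1e6 alignments plus 0.01 (y axis, log scale) in steps of 10 bases against the distance from the start of exon 1 (x axis, bases), with 1 panel per litter. The bars above show coding (black) and untranslated (grey) parts of the exons and the intron as a line. Depth fills both exons and leaves the intron nearly empty in each litter, and the highest point lies in the 3' UTR.

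Exon 2 was deeper than exon 1 in each litter. Mean depth was 1990 in exon 2 and 440 in exon 1 in litter 1, 2105 and 496 in litter 2, and 538 and 231 in litter 3. The ratio of exon 2 to exon 1 was 4.53, 4.25 and 2.34 in litters 1, 2 and 3 (3.70 ± 1.19, SD, n = 3). Exon 1 held 7.95% of litter 1's exon alignments, with a 95% Wilson interval from 7.69 to 8.23. For litter 2 the share was 8.43% (8.16 to 8.70), and for litter 3 it was 14.3% (13.7 to 15.0). The share in litter 3 lay above both others by more than counting error. Over coding bases alone the ratio of exon 2 to exon 1 was 1.94, 1.73 and 0.650 in litters 1, 2 and 3. In litter 3 the coding part of exon 2 was therefore shallower than that of exon 1, at a mean depth of 188 against 290.

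The 3' UTR was the deepest part of the transcript in each litter. It held 57.0%, 58.1% and 64.1% of the exon alignments in litters 1, 2 and 3, and its mean depth was 4.92, 5.13 and 6.60 times that of the coding sequence. The 5' UTR was the shallowest part, with 23.5, 19.0 and 4.74 RPKM in litters 1, 2 and 3. The coding part of exon 1 stood at 214, 270 and 126 RPKM, the coding part of exon 2 at 415, 466 and 81.6 RPKM, and the 3' UTR at 1743, 2091 and 625 RPKM. These parts differ in how much of them lies within a read length of an end, where gapless reads lower the depth. Without the 72 bases at each exon end, exon 2 was 2.69 times as deep as exon 1 on average. For the other parts no such value was computed.

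**Figure D3:**
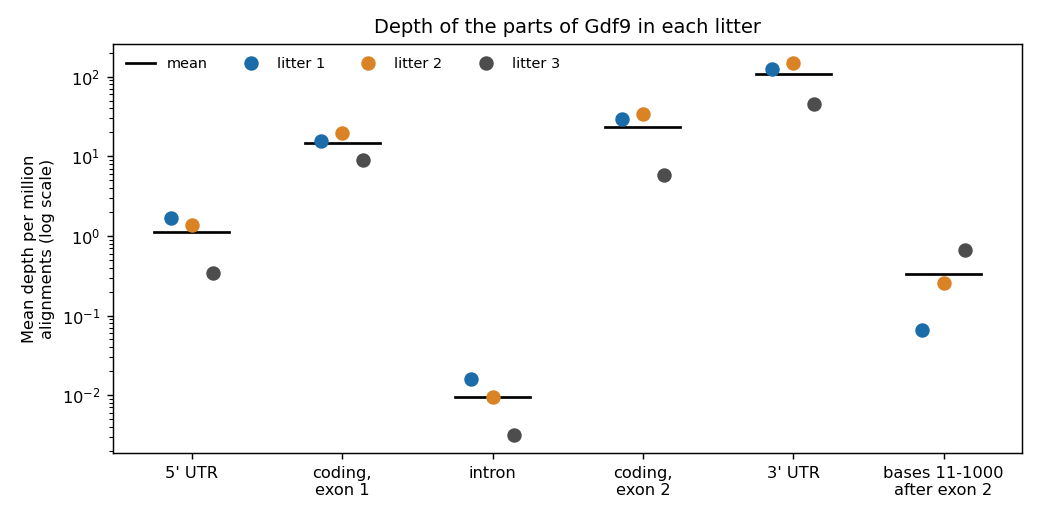
Mean depth per 1e6 alignments (y axis, log scale) of 4 parts of the transcript, the intron and the bases after exon 2, with 1 point per litter and a line at the mean of the 3 litters. Litter 3 is lowest in the first 5 parts and highest after exon 2.

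Depth did not climb evenly from the 5' to the 3' end. In 5 equal steps along the spliced transcript, the shares of depth were 4.85%, 24.5%, 10.8%, 2.74% and 57.0% in litter 1. They were 5.67%, 22.5%, 10.2%, 3.49% and 58.1% in litter 2, and 6.89%, 18.5%, 8.17%, 2.42% and 64.1% in litter 3. The second and the last step were thus high. The fourth was the lowest in every litter. The last 20% of the transcript was 11.8, 10.3 and 9.30 times as deep as the first 20% in litters 1, 2 and 3 (10.4 ± 1.24, SD, n = 3). Within the coding sequence the order was the other way, and its last 20% had 0.368, 0.454 and 0.239 times the depth of its first 20% in litters 1, 2 and 3. From the 3' end of the transcript, 50% of the depth was reached within 225, 220 and 202 bases.

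The profile of litters 1 and 2 was nearly the same, and that of litter 3 differed from it in places. The highest depth, 13539, 13265 and 4310 in litters 1, 2 and 3, was at transcript bases 1615, 1615 and 1617, in the 3' UTR about 179 bases from the end (53251226 on chromosome 11, mm9). It was 25.4, 21.2 and 21.4 times the median depth of the exons. In bins of 100 bases, the first of coding exon 2 (transcript bases 501 to 600) had depths of 3305, 3169 and 480. Transcript bases 1201 to 1300, also coding, had 71.0, 66.4 and 38.5. Within exon 1, bases 201 to 300 were deeper than bases 301 to 400 in litter 1 (895 and 629) and litter 2 (1231 and 641), but shallower in litter 3 (262 and 499). The deepest bin was bases 1601 to 1700 in litters 1 and 3, at 5542 and 2948, and bases 1701 to 1793 in litter 2, at 6428. The stretch labelled deepest above had a mean depth of 81.3, 95.9 and 15.0 per 1e6 alignments in litters 1, 2 and 3. For the one labelled shallowest it was 0.956, 0.904 and 0.347. Transcript bases 501 to 600 averaged 94.0, 99.7 and 15.0, and deeper bases of coding exon 2 lie before the stretch labelled deepest. Both labelled stretches have a GC content of 48.3%. Across the 18 bins, which share 1 transcript and 3 libraries, GC content and log2 mean depth had a Pearson's r of -0.14 (Spearman's rho -0.14). The log2 share per bin had an r of 0.99 between litters 1 and 2, 0.92 between litters 1 and 3 and 0.91 between litters 2 and 3 over the same 18 bins.

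The lower level of litter 3 was uneven along the transcript. Litter 3 was the lowest of the 3 libraries in 18 of 18 bins. Its depth per 1e6 alignments was between 0.106 and 0.818 times the mean of litters 1 and 2, with a median of 0.271. The ratio was 0.818 at transcript bases 301 to 400, in exon 1, and 0.106 at transcript bases 1001 to 1100, in exon 2. By parts, it was 0.519 for the coding part of exon 1, 0.185 for the coding part of exon 2 and 0.326 for the 3' UTR. Between litters 1 and 2 the ratio of litter 2 to litter 1 ran from 0.599 to 2.08, with a median of 1.10. With 1 library per litter, these ratios have no replicate check.

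**Figure D4:**
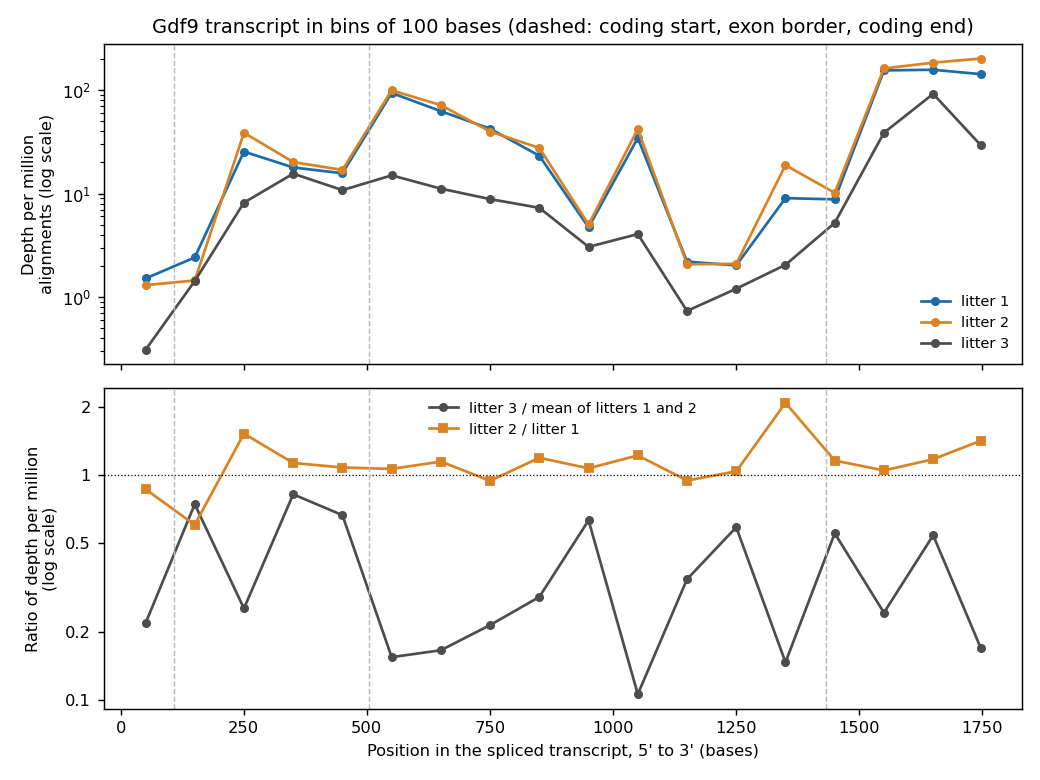
Top, depth per 1e6 alignments (y axis, log scale) in bins of 100 bases along the spliced Gdf9 transcript (x axis, bases, 5' to 3') with 1 line per litter. Bottom, litter 3 divided by the averaged litters 1 and 2, and litter 2 divided by litter 1 (log scale). The ratio of litter 3 stays below 1 in all 18 bins, between 0.106 and 0.818.

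Differences between the libraries were tested in 1 kb windows over the whole genome, by a chi-square test against Poisson error with Benjamini-Hochberg adjustment. This compares the 3 libraries and not conditions. Of 10913 windows that averaged 10 CPM or more, 1903 (17.4%) passed an adjusted p of 0.05 and also differed over 4-fold. That number was 115 without litter 3 and 1203 without litter 2. Of the 3 Gdf9 windows tested, 1 was called, that of 53250001 to 53251000, where the highest litter had 5.74 times the CPM of the lowest. The other windows passed the adjusted test, as 97.5% of windows did, but differed by 3.22-fold (53251001 to 53252000) and 2.23-fold (53247001 to 53248000). A fold below 5.74 was found in 90.9% of the windows tested. Litter 3 was the lowest in all 3 Gdf9 windows, and in 40.4% of the windows tested. Over these windows, the median ratio of litter 3 to the averaged litters 1 and 2 was 1.05, and 8.33% of them had a lower ratio than the 0.293 of the Gdf9 exons. The call of the exon 2 window was lost without litter 3 (1.12-fold). It was also lost with each start position counted once (1.34-fold), a count that leaves the litters little room to differ.

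Most Gdf9 alignments repeated a start position already seen. In the exons 96.7%, 96.8% and 90.4% of alignments did so in litters 1, 2 and 3, against 85.6%, 85.5% and 85.2% over the whole libraries. They started at 1292, 1299 and 1083 distinct positions, so counting each position once leaves little room for the litters to differ. Only 1651 gapless starts fit in the exons, so with this many alignments most must repeat. The repeated share thus depends on depth and is no measure of extra duplication at Gdf9. The most used start held 2.67%, 2.18% and 3.10% of the exon alignments, at transcript bases 1551, 1551 and 1550, and the 10 most used together 18.8%, 16.6% and 21.2%. With each start counted once, the level was 143, 158 and 128 RPKM in litters 1, 2 and 3. Litter 3 was again the lowest, but the number of distinct starts itself depends on depth, so this order is no separate check. Reads that align equally well elsewhere were looked for by their pattern of counts. None of 720 runs of 3 neighbouring start positions in the exons, which hold 96.2% of their alignments, occurred elsewhere in the genome with the same spacing and counts. Such a repeat could be seen only if the aligner reported every placement of a read, which is not given in the sources used here, so reads that align equally well elsewhere cannot be judged from it.

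Outside the main transcript, the interval held few alignments. Upstream of exon 1 it held 149, 18 and 6 alignments in litters 1, 2 and 3, and 142 of those in litter 1 formed 1 block from 53246245 to 53246357. The first exon of the annotated variant Gdf9-202, placed by its distance to exon 1, had a mean depth of 3.90, 0.976 and 1.38, against 440, 496 and 231 in exon 1. In litter 1 the block just named reaches into that exon from outside it. The exon of the variant Gdf9-203 that ends at the same base but begins after the block had 1.19, 0.0268 and 2.16. Its highest depth was 2, 1 and 3, too few alignments to order the litters. After exon 2 the litters stood in another order than in the exons. From base 11 to base 1000 past its end, 31.6, 112 and 294 alignments were found in litters 1, 2 and 3, or 0.897, 3.53 and 9.18 CPM. That is 0.0816%, 0.272% and 2.61% of the exon alignments. Litter 3 was here 4.15 times the mean of litters 1 and 2, while it was 0.293 times their mean in the exons. Strand is not part of these tracks, so the strand of these alignments is not known.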

How the data were processed

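The authors deposited 1 coverage signal track per library, with the number of alignments over each base, not scaled to depth. The aligner was Bowtie and the build mm9, per the submitters' processing notes. For its version, its filters and the placements allowed per read, nothing is given in the sources used here. Litters 1, 2 and 3 were lanes 3, 4 and 8, per the file headers.

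Isolated blocks at depth 1 were 72 bases long in 99.9% of cases, so alignments were taken as 72 gapless bases and their starts computed from steps in depth (0 negative values). This and the window test were tested on simulated data. The simulated window counts had Poisson error only, so they do not show how the test behaves on amplified reads. Region alignments are summed depth divided by 72. Windows count leftmost bases. Gene structure came from GENCODE M21 (GRCm38), as lengths and distances only. Values are mean ± SD over litters; an exact two-sided test by sign flips could reach no p below 0.25 with 3 litters and was not run. P-values measure how far these libraries differ beyond counting error. They do not measure the spread between replicates, and the differences may be technical. Python 3.11.15, numpy 2.4.6, scipy 1.17.1 and statsmodels 0.14.6 were used. Gdf9 is the only gene named by rule, with neighbours named where depth lay outside its exons. The gene, its interval and the tests were chosen with earlier results of these data known.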

Additional observations from a re-analysis of the deposited data

How the results depend on the processing

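Of 51 alternatives, 35 left the value within the spread between litters or, for counts and the coefficient of variation, within 1.5 times. Leaving out a litter cannot move a mean of 3 past that spread, so for means it was no check. Counting each start position once lowered the exon level to 143 RPKM, its coefficient of variation to 10.8%, the exon 2 to exon 1 ratio to 1.26 and the ratio of the last to the first 20% to 1.66, raised intron depth to 0.432% of exon depth, and put the 3' UTR window above 99.74327% of windows (99.94859% otherwise). Distinct starts in the exons amounted to 78.3%, 78.7% and 65.6% of the possible gapless starts in litters 1, 2 and 3. Counting once thus caps depth in the exons, which by construction draws such ratios towards 1 and raises the intron share. Without the 100 highest windows in the total, the level was 817 RPKM. Intron depth was 0.162% by leftmost base and 0% by medians. The ratio of the last to the first part was 88.4 with 10% parts and 0.354 over coding bases. Windows called numbered 5943 at a fold limit of 2 and 18397 from 1 CPM. Without 1 litter, the coefficient of variation was 11.5% to 81.1% and windows called 115 to 1691, lowest without litter 3 in both. No paired analysis was possible because all samples belong to 1 group. Depth limits the intron, where few alignments were found. Beyond each alternative's own construction, the cause was not tested.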
